A study of Mus musculus with 20 samples.

Results

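Regions of open chromatin that were found in only 1 of 6 ATAC-seq libraries of mouse hematopoietic stem cells (HSCs) are described here. ATAC-seq marks accessible DNA by transposon insertion, and each library had its own list of called peaks. Merging all peaks that shared at least 1 bp, whichever list they came from, gave 149774 regions. Of these, 89727 regions (59.9%) held a peak from exactly 1 list and are called single-library regions. Each of them consisted of 1 peak. The other regions are called shared, and comprised 15291 regions in 2 lists, 9743 in 3, 7961 in 4, 7586 in 5 and 19466 in all 6. These regions were chosen by the called peak intervals of the 6 lists, so their width and peak values are given as a description and carry no test.

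The ATAC data comprised 3 libraries titled 6bKO and 3 titled Control, each from 10000 sorted HSCs of C57BL/6 mice aged 8 weeks with the Vav Cre driver, which acts throughout the blood system. Since all 6 carry the genotype label Wild-type, the groups rest on the titles. RNA was counted in 3 Kdm6b-KO libraries (Vav-Cre with both Kdm6b alleles floxed) and 3 Control libraries (Vav-Cre with unfloxed Kdm6b). For each RNA library, marrow of 6 animals (3 males and 3 females, 8 weeks old) was pooled. Kdm6b encodes a demethylase of lysine 27 of histone H3, and neither its deleted exons nor the sex of the ATAC animals is stated in the labels. The other 8 of the 20 samples were not analysed here.

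Open chromatin in a cell population falls mainly at promoters and at enhancers. Promoters of widely used genes are commonly rich in CG dinucleotides and open in many cell types, whereas enhancers are more often open in particular cell types. A peak caller compares the fragments at a position with a background. A weak site can therefore pass in one library and miss the threshold in another, and absence from a list is not absence of access.

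Sequences of promoters under single-library regions are shown to let the composition described further on be seen. For each library, the promoter window (250 bp before to 50 bp after the annotated start) was taken that overlapped the single-library region with the highest −log10 q (column 9 of the peak lists), among genes with a mean of at least 5 CPM (gene counts scaled to library size) in Control RNA. The windows and letters are RefSeq's, on GRCm38.p6, the assembly of mm10, and run 5′ to 3′ on the gene's strand. Capitals mark each CG dinucleotide. Ermap encodes an erythroid membrane protein (6bKO 1, chr4:119189946-119190245, minus strand, 5 CG). Trpv2 encodes a cation channel (6bKO 2, chr11:62575377-62575676, plus strand, 7 CG). Hdac8 encodes a histone deacetylase (6bKO 3, chrX:102505109-102505408, minus strand, 6 CG). Vil1 encodes villin, an actin-binding protein (Control 1, chr1:74409134-74409433, plus strand, 5 CG). Alg3 encodes a mannosyltransferase of protein glycosylation (Control 2, chr16:20610712-20611011, minus strand, 9 CG). Ms4a3 encodes a membrane protein of myeloid precursors (Control 3, chr19:11640802-11641101, minus strand, no CG). Kit, the stem cell factor receptor, is shown last for comparison, because its window lay under a region of all 6 lists (chr5:75574737-75575036, plus strand, 20 CG).

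Ermap: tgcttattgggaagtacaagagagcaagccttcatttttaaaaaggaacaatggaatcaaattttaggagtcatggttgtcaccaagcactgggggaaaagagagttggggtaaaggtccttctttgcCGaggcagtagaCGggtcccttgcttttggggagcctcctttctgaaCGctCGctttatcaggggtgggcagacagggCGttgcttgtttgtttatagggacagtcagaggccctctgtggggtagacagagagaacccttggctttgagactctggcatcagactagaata

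Trpv2: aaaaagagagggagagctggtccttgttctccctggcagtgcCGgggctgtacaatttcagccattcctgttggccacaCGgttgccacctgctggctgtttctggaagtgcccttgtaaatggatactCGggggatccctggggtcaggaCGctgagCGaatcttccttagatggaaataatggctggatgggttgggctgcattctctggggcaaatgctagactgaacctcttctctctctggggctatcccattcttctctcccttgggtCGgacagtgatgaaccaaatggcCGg

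Hdac8: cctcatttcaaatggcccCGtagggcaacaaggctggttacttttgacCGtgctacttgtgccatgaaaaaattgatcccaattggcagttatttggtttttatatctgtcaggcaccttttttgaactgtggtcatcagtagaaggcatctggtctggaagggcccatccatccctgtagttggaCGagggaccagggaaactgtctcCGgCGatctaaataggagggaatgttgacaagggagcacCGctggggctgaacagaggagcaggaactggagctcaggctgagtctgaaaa

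Vil1: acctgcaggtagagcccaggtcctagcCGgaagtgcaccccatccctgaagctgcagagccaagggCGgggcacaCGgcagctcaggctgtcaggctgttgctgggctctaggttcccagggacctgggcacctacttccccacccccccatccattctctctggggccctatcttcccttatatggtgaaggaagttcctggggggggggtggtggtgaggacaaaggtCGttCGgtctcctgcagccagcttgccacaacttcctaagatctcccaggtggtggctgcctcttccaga

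Alg3: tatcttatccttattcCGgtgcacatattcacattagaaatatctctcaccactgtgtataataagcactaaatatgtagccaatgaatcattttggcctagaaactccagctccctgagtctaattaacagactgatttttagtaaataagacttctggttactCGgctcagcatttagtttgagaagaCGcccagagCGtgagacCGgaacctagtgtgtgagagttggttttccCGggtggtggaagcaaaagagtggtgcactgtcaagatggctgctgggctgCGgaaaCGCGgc

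Ms4a3: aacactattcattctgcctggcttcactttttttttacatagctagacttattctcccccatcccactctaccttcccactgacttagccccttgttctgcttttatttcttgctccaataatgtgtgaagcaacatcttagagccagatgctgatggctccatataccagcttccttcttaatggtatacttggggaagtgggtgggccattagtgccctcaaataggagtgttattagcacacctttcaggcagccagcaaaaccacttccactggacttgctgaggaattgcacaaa

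Kit: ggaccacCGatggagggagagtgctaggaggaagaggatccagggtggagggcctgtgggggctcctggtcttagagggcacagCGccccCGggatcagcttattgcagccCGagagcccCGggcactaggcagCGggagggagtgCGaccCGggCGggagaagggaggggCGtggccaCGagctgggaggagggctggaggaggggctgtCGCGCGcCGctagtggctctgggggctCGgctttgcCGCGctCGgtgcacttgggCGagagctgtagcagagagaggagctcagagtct

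The 6 promoters under single-library regions held between 0 and 9 CG, against 20 in the window of Kit. Each of the 6 lay below the mean of 12.1 CG over all windows under single-library regions only. The region over Hdac8 (chrX:102505048-102505499) and the region over Ms4a3 (chr19:11640726-11641126) covered the whole window, whereas those over Trpv2, Ermap, Alg3 and Vil1 overlapped 212, 130, 130 and 60 bp of it. None of the 6 genes passed the RNA test. Vil1 had 4.18, 4.88 and 2.81 CPM in the Kdm6b-KO libraries, against 8.88, 15.2 and 7.86 CPM in Control (log2 fold change -1.44, edgeR adjusted p = 0.114). Ermap had 19.7, 2.17 and 0.938 CPM in Kdm6b-KO, against 42.6, 33.7 and 35.7 CPM in Control (log2 fold change -2.31, edgeR adjusted p = 0.466). The region over the Ermap window was found in 6bKO 1, and another single-library region within 1 kb of its gene span was found in Control 3.

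The number of single-library regions differed as much within a title as between titles. The libraries titled 6bKO held 26917, 8926 and 16203 of them, and the Control libraries 15074, 9464 and 13143. 6bKO 1 stood above all others, and 6bKO 2 was the lowest of the 6, so the groups overlapped. The lists themselves held 63682, 53692 and 69729 peaks in 6bKO and 47450, 44739 and 62125 in Control. Single-library regions thus made up 42.3%, 16.6% and 23.2% of the peaks in the 6bKO lists and 31.8%, 21.2% and 21.2% in the Control lists. The mean number was 17349 ± 9050 in 6bKO and 12560 ± 2850 in Control (SD, n = 3 each), a difference of 4788 (exact permutation test, two-sided p = 0.5). The mean share was 27.4% ± 13.3 in 6bKO and 24.7% ± 6.13 in Control (SD, n = 3 each, exact permutation test, two-sided p = 0.8). The smallest p that 3 against 3 libraries can give is 0.1. The difference in number was 787 without 6bKO 1, 10508 without 6bKO 2 and 2473 without Control 2. With each list cut to the 44739 peaks of highest −log10 q, it turned to -2323, with 14128, 5824 and 3787 single-library regions in 6bKO and 14390, 11005 and 5313 in Control.

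**Figure D1:**
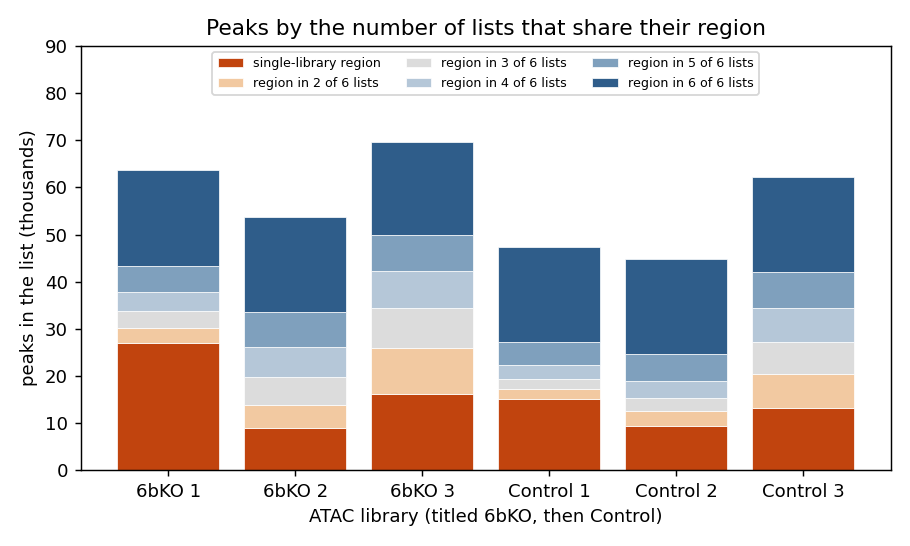
Peaks in each ATAC list (vertical axis, in units of 1000 peaks) by how many of the 6 lists share their region; each bar is 1 library, 6bKO left of Control. The lowest part of each bar holds the single-library regions, from 8926 in 6bKO 2 to 26917 in 6bKO 1.

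Single-library peaks were narrower than shared ones and had lower peak values. Their median width was 225, 207 and 225 bp in the 6bKO libraries and 210, 215 and 226 bp in the Control libraries. The narrowest was 150 bp in every library, and the widest reached 922, 962 and 974 bp in 6bKO and 928, 859 and 1110 bp in Control. Shared peaks of the same libraries had medians of 317, 353 and 405 bp in 6bKO and 319, 337 and 373 bp in Control. Together the single-library regions covered 6282, 1980 and 3926 kb in 6bKO and 3370, 2147 and 3186 kb in Control.

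Column 9 of the lists holds the authors' −log10 q of a peak, where a higher value marks a more certain peak. The lowest value in any list was 2.00. Its median over single-library peaks was 4.89, 4.86 and 5.38 in 6bKO and 4.61, 4.61 and 5.53 in Control. In shared peaks it was 10.7, 15.96 and 20.6 in 6bKO and 10.1, 12.6 and 20.2 in Control. A −log10 q of at least 10 was reached by 5.29%, 4.82% and 12.5% of the single-library peaks in 6bKO and by 3.08%, 2.27% and 15.2% in Control. 6bKO 3 and Control 3 therefore held most of these, with 2028 and 2001 of them, against 1424 in 6bKO 1, 430 in 6bKO 2, 465 in Control 1 and 215 in Control 2. On either side of the rule, the median −log10 q of peaks in 1 list was 4.89, 4.86 and 5.38 in 6bKO and 4.61, 4.61 and 5.53 in Control, and that of peaks in 2 lists was 5.68, 7.09 and 8.31 in 6bKO and 5.43, 6.21 and 7.87 in Control. The step between them was small in 6bKO 1 and Control 1, and in Control 1 the median fold was 4.66 for both kinds of peak.

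**Figure D2:**
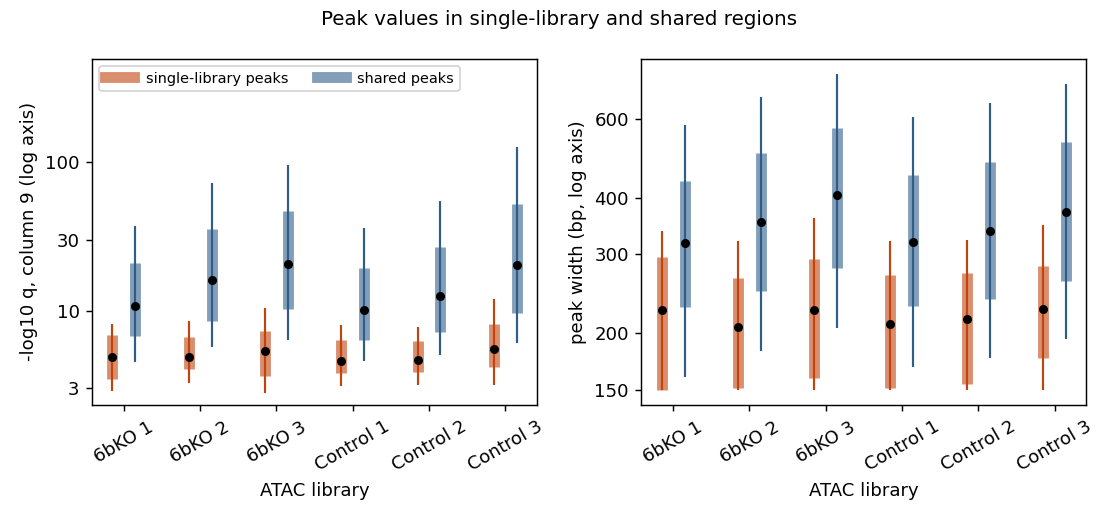
Peak −log10 q (left, log axis) and peak width (right, bp on a log axis) in each library for single-library and shared peaks; the point is the median, the thick bar the middle 50% and the thin line the 10th to 90th percentile. The single-library medians lie between 4.61 and 5.53 for −log10 q and between 207 and 226 bp for the width, below the shared medians of the same library.

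Column 7 of the lists holds the authors' fold enrichment at the summit, a ratio. Its median over single-library peaks was 5.37, 4.66 and 4.92 in 6bKO and 4.66, 4.43 and 3.53 in Control, and its highest values were 20.2, 12.5 and 21.6 in 6bKO and 11.5, 11.7 and 10.5 in Control. Many peaks of a library shared exactly the same fold. The 10 commonest values held 53.5%, 51.7% and 62.2% of the single-library peaks in 6bKO and 46.0%, 51.7% and 43.4% in Control. These values lay on a ladder of equal steps of 0.655, 0.359 and 0.423 in 6bKO and 0.358, 0.316 and 0.168 in Control. In MACS2 the ratio is a fragment pileup over a background, but neither is given in the lists, so what 1 step stands for was not tested. Within 0.01 steps, 53.2%, 53.9% and 67.1% of the values in 6bKO and 48.2%, 53.7% and 52.7% in Control were whole multiples. The median peak stood 8.2, 13 and 11.6 steps high in 6bKO and 13, 14 and 21 in Control. 6bKO 1, which had the most single-library regions, had the largest step and the fewest steps at the median. Control 3 had the smallest step. The read depth of these libraries is unknown, and its part in the number of single-library regions was not tested.

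Most single-library regions lay far from gene starts, a property that the rule had not used. Within 1 kb of an annotated start lay 2.96%, 5.48% and 6.22% of them in 6bKO and 4.07%, 3.94% and 5.58% in Control. For shared regions of the same libraries the share was 29.2%, 27.04% and 24.7% in 6bKO and 32.0%, 31.1% and 25.9% in Control. It was 41.8% for regions in all 6 lists. The share was lower in single-library regions in 6 of 6 libraries, by 23.6 percentage points on average (4.71% in single-library and 28.3% in shared regions, SD of the difference 4.00, n = 6, exact sign-flip permutation test, two-sided p = 0.03125, the smallest that 6 libraries can give). The shared regions of different libraries are partly the same regions, so the 6 differences are not independent.

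The median distance to the nearest start was 37030, 27015 and 25644 bp for single-library regions in 6bKO and 29398, 31812 and 20846 bp in Control. For shared regions it was 10800, 11380 and 12168 bp in 6bKO and 9314, 9122 and 11403 bp in Control. Single-library regions were farther away in 6 of 6 libraries, by a mean of 17926 bp (SD 6218, n = 6, exact sign-flip permutation test, two-sided p = 0.03125). Measured to either end of the gene span, for which more genes have a position, the difference was 7869 bp. Beyond 50 kb lay 42.5%, 32.5% and 31.6% of the single-library regions in 6bKO and 35.6%, 38.7% and 26.2% in Control. Control 3 had the nearest and 6bKO 1 the farthest. Inside a gene span lay 52.9%, 59.0% and 60.4% in 6bKO and 57.3%, 54.0% and 61.6% in Control. This was 9.45 percentage points below the shared regions of the same libraries (57.5% in single-library and 67.0% in shared regions, SD of the difference 3.71, n = 6, lower in 6 of 6, exact sign-flip permutation test, two-sided p = 0.03125). Between the titles, the share within 1 kb was 4.89% ± 1.71 in 6bKO and 4.53% ± 0.912 in Control (SD, n = 3 each, exact permutation test, two-sided p = 0.9).

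**Figure D3:**
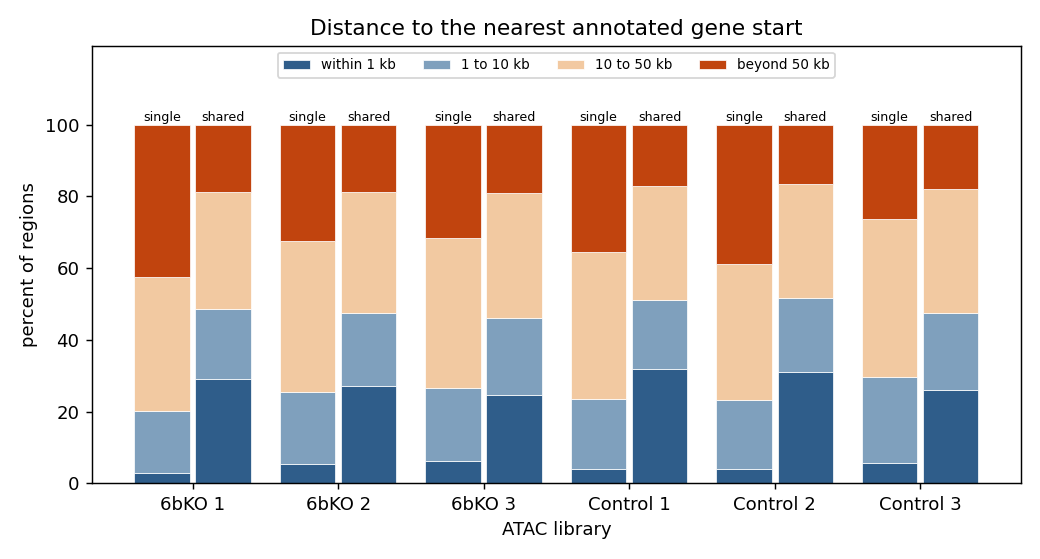
Share of regions (vertical axis, percent) by distance to the nearest annotated gene start, for single-library (left bar) and shared (right bar) regions of each library, 6bKO left of Control. The part within 1 kb is 2.96% to 6.22% in the single-library bars and 24.7% to 32.0% in the shared bars.

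The distance to other open regions is given as a description, since the rule leaves out every region that overlaps a peak of another list. The median distance to the nearest shared region was 20821, 12429 and 11035 bp in 6bKO and 13783, 14524 and 7791 bp in Control. A peak of another list lay within 500 bp of 7.0%, 11.7% and 11.1% of them in 6bKO and of 9.93%, 10.9% and 12.2% in Control. Within 5 kb this share was 37.2%, 53.5% and 51.7% in 6bKO and 48.4%, 49.3% and 60.2% in Control.

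The genes nearest to single-library regions were less expressed than those nearest to shared regions. On the scale of log2(CPM + 0.5), averaged over Control RNA, the gene of nearest start had a mean of 1.69, 1.90 and 2.21 for single-library regions in 6bKO and of 1.93, 1.99 and 2.48 in Control. For shared regions the mean was 3.30, 3.23 and 3.16 in 6bKO and 3.45, 3.48 and 3.27 in Control. The difference was -1.28 (SD 0.335, n = 6, lower in 6 of 6, exact sign-flip permutation test, two-sided p = 0.03125). Among genes that pass edgeR's expression filter it shrank to -0.263. Among regions whose nearest gene was counted in RNA, it had under 1 CPM for 54.9%, 50.5% and 46.2% of the single-library ones in 6bKO and for 50.4%, 50.2% and 41.7% in Control. For shared regions this share lay between 26.1% and 30.5%. The means above also leave out regions whose nearest gene was not counted. Kept were 16605, 5592 and 10699 single-library regions in 6bKO and 9661, 6056 and 8733 in Control. Of the shared regions, 25924, 31654 and 37918 were kept in 6bKO and 23042, 25301 and 34759 in Control.

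The CG content of promoters was graded by the number of lists. Of 32851 annotated windows of 300 bp, 1251 windows of 1164 genes lay under a single-library region and no shared one. They held a mean of 12.1 CG, against 15.5 under regions in 2 lists, 23.1 under regions in all 6 and 5.52 with no peak. Over all windows the mean was 12.4 CG, close to that of the single-library windows. The single-library windows of each library held 9.88, 11.3 and 14.5 CG in 6bKO and 11.8, 10.4 and 11.4 in Control, and the shared windows 21.8 to 22.5. Their mean GC content was 56.2%, against 62.3% under regions in all 6 lists. The genes of single-library windows had a median of 0.303 CPM in Control RNA, and 21.7% of the windows with a counted gene reached 5 CPM. Under regions in all 6 lists these values were 34.8 CPM and 83.7%, and with no peak 0.0728 CPM and 14.9%.

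**Figure D4:**
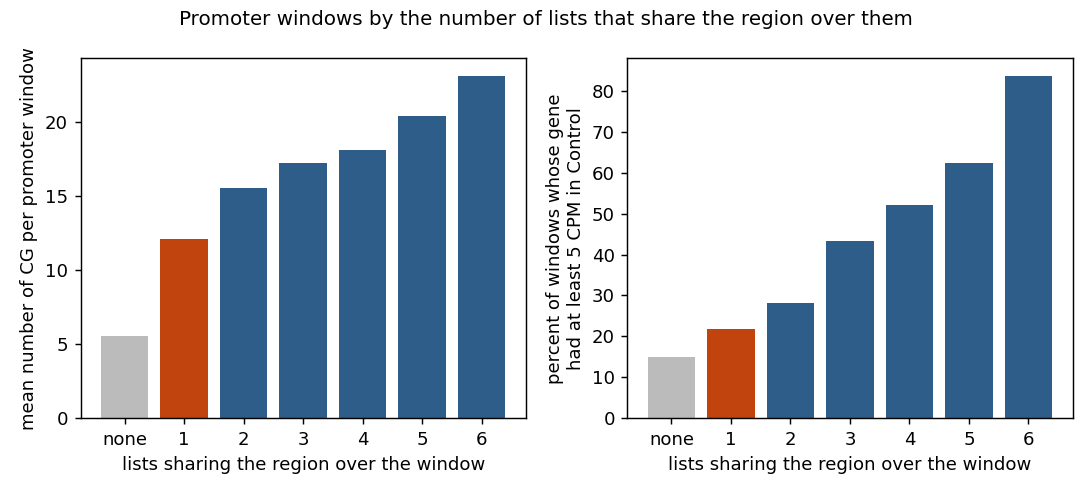
Mean number of CG per promoter window of 300 bp (left) and share of windows whose gene had at least 5 CPM in Control RNA (right, percent), by how many lists share the region over the window. Windows under single-library regions, at 12.1 CG and 21.7%, lie between windows with no peak, at 5.52 CG and 14.9%, and windows under regions in all 6 lists, at 23.1 CG and 83.7%.

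Short promoter motifs were counted in the same windows on both strands. The TATA box, searched as TATAAA, was in 11.8% of the single-library windows, against 5.41% under regions in all 6 lists and 13.6% of all windows. The GC box, searched as GGGCGG, was in 38.3%, against 69.1% under regions in all 6 lists and 35.7% of all windows. The core bound by ETS factors, searched as CCGGAAG, was in 3.92%, against 20.4% under regions in all 6 lists and 8.86% of all windows. The CCAAT box, searched as CCAAT, was in 31.7%, against 39.9% and 37.4%. The cyclic AMP response element, searched as TGACGTCA, was in 1.52%, against 3.63% and 1.79%, and the E-box, searched as CACGTG, in 7.75%, against 10.5% and 7.15%. The GC box, ETS core, response element and E-box contain CG themselves, and none of the 6 motifs contains another. Among the printed promoters, Ermap and Hdac8 held a TATA box, in both only on the strand opposite to the gene. Vil1 held a GC box and an ETS core, and Kit a GC box. Ermap, Hdac8, Alg3 and Ms4a3 held a CCAAT box on either strand, and Trpv2 held none of the 6 motifs.

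Across chromosomes, the X chromosome separated the titles. It carried 4.06%, 2.11% and 2.76% of the single-library regions in the 6bKO libraries (1092, 188 and 447 regions), against 1.37%, 1.39% and 1.22% in the Control libraries (207, 132 and 161 regions). Every 6bKO library lay above every Control library. The mean was 2.97% ± 0.993 in 6bKO and 1.33% ± 0.0924 in Control (SD, n = 3 each), a difference of 1.64 percentage points (exact permutation test, two-sided p = 0.1, the smallest this design can give). The groups did not overlap for 3 of 21 chromosomes (14.3%), namely X, 9 and 13, each with a higher share in 6bKO, so X was 1 of 3 such chromosomes, and p-values were not adjusted over them. For chromosome 9 the shares were 6.08%, 5.61% and 5.26% in 6bKO and 5.07%, 4.67% and 5.17% in Control, and for 13 the shares were 4.77%, 4.81% and 4.91% in 6bKO and 4.48%, 4.51% and 4.68% in Control. These differences were smaller than the one on X.

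The same order of the titles was seen on X over all peaks, which include the single-library ones, and in the shared regions alone. Of all peaks in a list, 2.97%, 2.12% and 2.18% in 6bKO and 1.70%, 1.78% and 1.75% in Control lay on X, and of shared regions 2.17%, 2.11% and 2.01% in 6bKO and 1.84%, 1.88% and 1.88% in Control. Peaks on Y were found in all 6 lists, with 16, 28 and 20 in 6bKO and 25, 32 and 31 in Control. Within 1 kb of the start of Xist, the RNA that silences an X chromosome in female cells, 6bKO 1 had a peak with a fold of 7.21 and 6bKO 3 one with a fold of 10.9, whereas 6bKO 2 and the 3 Control libraries had none. The labels do not give the sex of these animals, so sex and title cannot be told apart here. Within autosomes, chromosome 2 held 10.0% of the single-library regions of Control 1, against 6.76% to 7.64% in the other 5 libraries. Chromosome 2 was chosen after its values were seen. The ratio of the highest to the lowest library was 1.48 there, and larger on chromosomes 16 (1.7), 18 (1.53) and 19 (1.52).

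**Figure D5:**
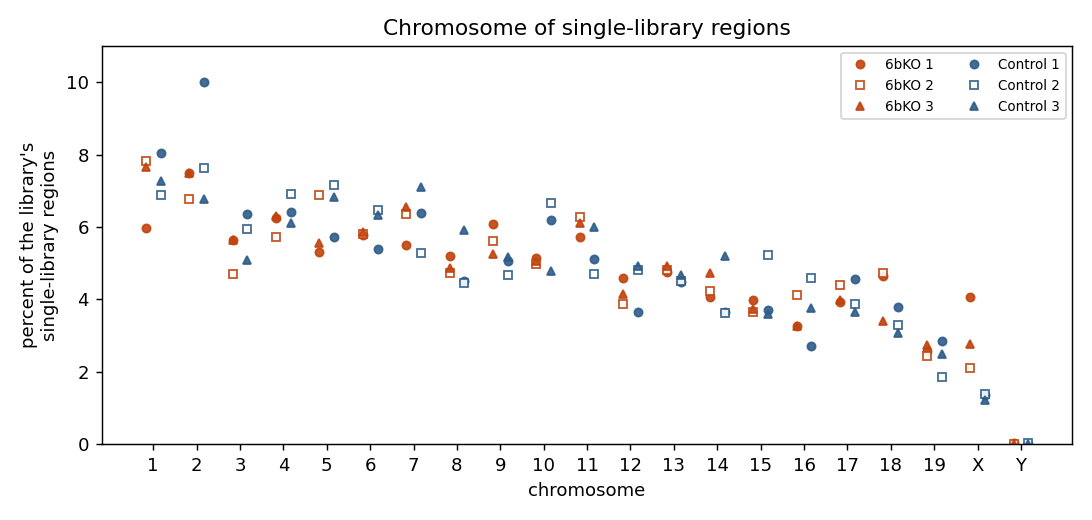
Share of each library's single-library regions (vertical axis, percent) on each chromosome, with 6bKO left of Control at each position; each point is 1 library. On X the 6bKO points lie at 2.11% to 4.06%, above the Control points at 1.22% to 1.39%, and on chromosome 2 Control 1 lies at 10.0%.

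Windows of 1 Mb were ranked in each library by their number of single-library regions, and the 2 fullest are given with no test. In some the count was high in 1 library. In 6bKO 1, which averaged 10.4 regions per window that held any region of this kind, they held 29 each, and both were on chromosome 11. In the window from 81000001 to 82000000, which holds Asic2, an acid-sensing ion channel gene, the 3 libraries titled 6bKO had 29, 6 and 6 and the Control libraries 3, 0 and 6. In the window from 52000001 to 53000000 they had 29, 7 and 14 and the Control libraries 10, 6 and 9. Control 2 averaged 3.66 regions per window but held 18 on chromosome 15 from 46000001 to 47000000, where the 6bKO libraries had 5, 1 and 2 and the other Control libraries 6 and 0. In other windows several libraries were high together. The fullest window of Control 3, on chromosome 2 from 27000001 to 28000000, held 23, 5 and 15 in 6bKO and 15, 9 and 25 in Control. A fullest window of 6bKO 2, on chromosome 2 from 165000001 to 166000000, held 16, 15 and 14 in 6bKO and 15, 9 and 9 in Control.

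The single-library peaks of highest −log10 q lay both inside and between annotated genes. In 6bKO 3 the strongest were chr14:32854138-32854338 (fold 21.6, −log10 q 56.8), 2418 bp from the start of Vstm4, and chr7:143368322-143368531 (fold 12.6, −log10 q 54.2), inside the potassium channel gene Kcnq1. In 6bKO 1 the strongest was chr13:87204199-87204487 (fold 20.2, −log10 q 41.9), which lay in no annotated gene and 595470 bp from the nearest listed start. In 6bKO 2 it was chr3:86910272-86910707 (fold 12.5, −log10 q 31.4), inside the kinase gene Dclk2. In Control 3 it was chr16:95464560-95464984 (fold 9.93, −log10 q 57.6), inside Erg, an ETS transcription factor gene of stem cells, 5212 bp from its start. The next in Control 3 lay inside Grk6, a receptor kinase gene (chr13:55447649-55447994, fold 4.96, −log10 q 57.3), and inside Sh3bp5 (chr14:31389766-31390248, fold 7.55, −log10 q 50.4). In Control 1 the strongest was chr12:74072234-74072519 (fold 11.5, −log10 q 24.6), inside the synaptotagmin gene Syt16. In Control 2 it was chr6:122615867-122616112 (fold 11.7, −log10 q 30.3), 13423 bp from Apobec1, a cytidine deaminase gene. A −log10 q of 50 or more was thus found only in 6bKO 3 and Control 3 among these 3 regions of each library.

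The expressed genes with the highest −log10 q at their start, 2 per library, were of varied roles. In 6bKO 1, Aff1, a transcription elongation factor, had one 133 bp from its start (chr5:103754706-103754971, fold 11.6, −log10 q 33.6). It had 29.9 ± 4.14 CPM in Kdm6b-KO and 31.0 ± 8.92 CPM in Control (SD, n = 3 each). The planar polarity gene Vangl2 had one 930 bp away in the same library. In 6bKO 2 these were Trpv2 and Pank2, a pantothenate kinase, and in 6bKO 3 Hdac8 and Zc3hav1l. In Control 1 they were Vil1 and Uqcc3, a mitochondrial assembly factor, in Control 2 Alg3 and E2f3, a cell cycle transcription factor, and in Control 3 Ms4a3 and Milr1, a receptor of mast cells. Adjusted p of these 12 genes in the RNA comparison ranged from 0.114 for Vil1 to 0.970 for Uqcc3, and none passed.

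Gene groups are described by their single-library and shared regions. Over all protein-coding genes, 12481 of 21887 (57.0%) held at least 1 single-library region within their span or 1 kb of it, at 4.27 single-library and 3.84 shared regions per 100 kb. Long genes hold more, so counts of genes are read beside this density. These shares are a description, with no test. Of 30 HSC regulators and receptors, 23 held at least 1, and their density was 6.38 single-library and 6.63 shared regions per 100 kb. The most were in Mecom, a zinc finger regulator of HSCs, with 10, 1 and 6 in 6bKO and 1, 1 and 5 in Control. Erg had 5, 2 and 5 in 6bKO and 4, 0 and 7 in Control, beside 12 shared regions. Runx1, a core binding factor, had 3, 2 and 1 in 6bKO and 4, 4 and 6 in Control. Prdm16, a regulator of stem cell maintenance, had 4, 0 and 9 in 6bKO and 1, 1 and 5 in Control, and its strongest region was in 6bKO 3 (chr4:154519656-154519933, fold 7.13, −log10 q 16.5). Mecom and Runx1 were chosen after their values were seen.

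Myeloid genes were spread unevenly over the libraries. Of 18 neutrophil and monocyte genes, 12 (66.7%) held a single-library region, at 7.60 single-library and 12.2 shared regions per 100 kb and a median span of 4.32 kb. The number of genes was 3, 3 and 0 in the 6bKO libraries and 0, 1 and 7 in the Control libraries. Over all protein-coding genes the same numbers were 6266, 3388 and 5521 in 6bKO and 4832, 3318 and 4780 in Control, so Control 3 was not high there. The 7 genes in Control 3 were Mpo, Elane, S100a9, Ctsg, Cebpe, Mmp8 and Ly6c2, and all were named because of this count except S100a9 and Ly6c2. Mpo, Elane, Ctsg and Mmp8 encode granule enzymes, and Cebpe a transcription factor of granulocyte maturation. The region beside S100a9, which encodes a calcium-binding protein of neutrophils, was 1018 bp wide (chr3:90691547-90692564, fold 5.07, −log10 q 25.3). That at Ly6c2, a surface protein of monocytes, covered its start (chr15:75111814-75112205, fold 7.08, −log10 q 22.9). Ms4a3, the strongest start in Control 3, is a myeloid gene as well.

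Peaks at the starts of marker genes, of any kind of region, are given beside this. Markers with no listed start were left out of these counts. Of 7 neutrophil markers, 1, 1 and 3 had a peak within 1 kb of the start in the 6bKO lists, against 4, 6 and 7 in the Control lists. Of 8 HSC markers, 6, 7 and 7 had one in 6bKO and 5, 5 and 7 in Control. Slamf1, which encodes the sort marker CD150, had none within 1 kb of its start in any list. Within its span or 1 kb of it, Slamf1 held 4 single-library regions and 1 shared region. All 3 megakaryocyte markers with a listed start had one in every list. Of 5 genes of liver, brain and testis, 0, 1 and 1 had one in 6bKO and 1, 0 and 0 in Control. In RNA, the 7 neutrophil markers summed to 93.2 to 4017 CPM in Kdm6b-KO and to 1087 to 3464 CPM in Control. Each of the 7 was far higher in Kdm6b-KO replicate 1 than in replicates 2 and 3. Mpo, for example, had 1089, 55.7 and 20.3 CPM in Kdm6b-KO and 771, 356 and 545 CPM in Control. The part of such cells in the single-library regions was not tested, and in bulk libraries fewer cells of a type and less signal per cell cannot be told apart.

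Of 15 erythroid genes, 12 held a single-library region, in 5, 1 and 2 genes in 6bKO and in 3, 2 and 6 in Control. This was 80.0%, beside 57.0% over all protein-coding genes, at 5.89 single-library and 6.42 shared regions per 100 kb. Tfrc, the transferrin receptor gene, held one in Control 3 (chr16:32614161-32614389, fold 5.40, −log10 q 14.3). Of 4 erythroid markers with a listed start, 1, 2 and 2 had a peak there in 6bKO and 2, 2 and 3 in Control. Of 22 lymphoid genes, 11 (50.0%) held one, at 4.04 single-library and 3.94 shared regions per 100 kb, near the values of all protein-coding genes. The B cell factor gene Ebf1 had 0, 1 and 4 in 6bKO and 1, 2 and 1 in Control, and the T cell factor gene Bcl11b had 1, 0 and 2 in 6bKO and none in Control. Of 12 megakaryocyte and mast cell genes, 4 (33.3%) held one, at 6.42 single-library and 9.17 shared regions per 100 kb. Selp, the P-selectin gene, had one over its start in 6bKO 2 (chr1:164115206-164115453, fold 6.82, −log10 q 10.4), and Gp1bb, a platelet glycoprotein gene, had one 603 bp from its start in 6bKO 3 (chr16:18621561-18621800, fold 5.89, −log10 q 13.3).

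Immediate-early genes, which respond to stimulation within minutes, are short, with a median span of 4.02 kb against 17.2 kb over all protein-coding genes. They held 6.38 single-library and 28.4 shared regions per 100 kb, and 10 of 24 (41.7%) had at least 1 single-library region. Their single-library density was that of the HSC genes, and the part of gene length in the shared density was not tested. Jun, an AP-1 subunit, had both of its own in 6bKO 3, the stronger at chr4:95048352-95049033 (fold 2.64, −log10 q 14.6). In RNA it had 73.2 ± 33.9 CPM in Kdm6b-KO and 16 ± 10.7 CPM in Control (SD, n = 3 each, log2 fold change 2.21, edgeR adjusted p = 0.193). Its paralog Jund had 1 in Control 3 (chr8:70700579-70700855, fold 2.94, −log10 q 26.1).

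Genes of other tissues had 2.32 single-library and 0.695 shared regions per 100 kb. Of 26 such genes, 13 held a single-library region, and they were mainly long genes of neurons. Csmd1, which spans 1643 kb, had 15, 4 and 2 in 6bKO and 11, 2 and 3 in Control, beside 3 shared regions. Dscam, a neuronal adhesion gene of 584 kb, had 5, 5 and 2 in 6bKO and 1, 2 and 11 in Control, beside 9 shared ones. Csmd1 averaged 0.188 CPM in Kdm6b-KO and 0.544 CPM in Control RNA, and Dscam 0.0723 and 0.304 CPM.

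Of 16 genes for enzymes of histone H3 lysine 27 and lysine 4 methylation, 14 (87.5%) held a single-library region, at 3.67 per 100 kb, below the 4.27 of all protein-coding genes. Their median span was 44.2 kb. Kdm5b, a lysine 4 demethylase, had exactly 1 from each of the 6 libraries at 6 different places, and the strongest was in 6bKO 3 (chr1:134606401-134606685, fold 11, −log10 q 21). Eed, a subunit of the complex that methylates lysine 27, had 1 in Control 3 (chr7:89963163-89963455, fold 7.06, −log10 q 21.4). Kdm6b itself (chr11:69398508-69420367) held 5 shared regions and 1 single-library region, in Control 3 at chr11:69411772-69412069 (fold 2.50, −log10 q 11.8). In RNA, Kdm6b had 142, 201 and 191 CPM in Kdm6b-KO and 91.7, 282 and 220 CPM in Control (log2 fold change -0.15, edgeR adjusted p = 0.882), so the groups overlapped. Counts of the whole gene can include exons that were not deleted.

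The RNA comparison of Kdm6b-KO with Control HSCs was set beside the single-library regions. Of 15185 tested genes, 70 (0.461%) passed the quasi-likelihood test of edgeR (adjusted p below 0.05), 37 higher and 33 lower in Kdm6b-KO. The count was 24 without Kdm6b-KO replicate 2, 20 without Kdm6b-KO replicate 3, and 519, 46 and 161 without Control replicates 1, 2 and 3. Among genes with a single-library region in their span, 35 of 8412 (0.416%) passed, and among genes without one 22 of 5023 (0.438%). Both shares were near the 0.424% of all 13435 tested genes with a position. Genes with single-library regions of 6bKO libraries only had 10 of 2384 called (0.419%), those of Control libraries only 13 of 1928 (0.674%), and those of both 12 of 4100 (0.293%). The median log2 fold change was 0.0143, 0.0236 and 0.0359 in these classes and 0.0193 over all. Where the region lay within 1 kb of a start, the median was 0.10 for 614 genes with 6bKO regions and 0.066 for 500 genes with Control regions, and -0.0324 for 70 genes with both.

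The called genes of smallest adjusted p with a single-library region were Gm18860, Med1, Gbp2b, Klhl42 and Stxbp4. Med1, a Mediator subunit (chr11:98152154-98193313), fell to 220, 171 and 180 CPM in Kdm6b-KO, against 1275, 1579 and 814 CPM in Control (log2 fold change -2.68, SE 0.27, edgeR adjusted p = 0.000208). Its single-library regions came from Control 1 and Control 2, the stronger at chr11:98186970-98187350 (fold 5.64, −log10 q 8.23). Gbp2b, an interferon-induced GTPase (chr3:142594816-142619179), rose to 41.3, 29.0 and 13.1 CPM in Kdm6b-KO, against 0.919, 0.380 and 1.09 CPM in Control (log2 fold change 5.05, SE 0.50, edgeR adjusted p = 0.000429). It held no shared region, and its 4 single-library regions came from 6bKO 1, 6bKO 3 and, for 2 of them, Control 1. Klhl42, a ubiquitin ligase adaptor (chr6:147090615-147112778), averaged 140 ± 11.8 CPM in Kdm6b-KO and 37.5 ± 9.49 CPM in Control (SD, n = 3 each), and its region was in Control 3. Stxbp4, a syntaxin-binding protein (chr11:90476492-90638136), averaged 62.7 ± 13.8 CPM in Kdm6b-KO and 227 ± 18.1 CPM in Control (SD, n = 3 each), and held 2, 0 and 3 single-library regions in 6bKO and 1, 0 and 3 in Control. Single-library regions of both titles lay in genes that rose and in genes that fell.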

How the data were processed

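ATAC peaks and RNA counts came from sorted HSCs. Per the submitters' processing notes, ATAC reads were handled with cutadapt 1.16, BWA 0.7.16a and MACS2 on mm10. The deposited lists, 1 per library, give the authors' fold enrichment (a ratio) and −log10 p and q of each peak. They were used to filter and rank peaks within a list. Where they are set side by side across lists it is as a description, since their scale differs between libraries. ATAC depth is unknown. Their integer score column, 10 times −log10 q as deposited by the authors, was not used. For RNA the same notes list HTSeq 0.8.0, STAR 2.0.4, Partek 6.6 and Subread featureCounts 1.4.5 without their roles. The deposited RNA files hold the authors' raw counts per gene, 6793873 to 19336121 in genes. Lines that name no gene held 80.3% to 83.5% of reads and were left out. Neither annotation nor strand setting is stated, so overlapping genes may share counts.

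Peaks were merged in Python 3.11.15 with pandas 2.3.3 and numpy 2.4.6, and merging recovered every planted region in simulated lists. Gene starts came from 32851 RefSeq promoter windows of 27025 genes (GRCm38.p6), which do not cover every gene, so some distances are too long. Chromosome 18 was not used here for distances. Gene spans came from RefSeq. RNA was tested with edgeR 4.0.16 (TMM, filterByExpr, robust quasi-likelihood, Benjamini-Hochberg) in R 4.3.3, with DESeq2 1.42.0 and limma 3.58.1 as alternatives. Replicates are labelled samples, and RNA p-values are set against the spread between pooled libraries, not between animals. The exact p-values come from reassigning titles or signs over the ATAC libraries. A sign-flip p of 0.03125 is reached whenever all 6 differences have the same sign, whatever their size. Of 49671 gene IDs, 49326 matched a symbol.

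The regions, gene lists and tests were chosen with earlier results of these data known. Genes were named by rule: per library the 3 single-library regions of highest −log10 q and the 2 at starts of genes with at least 5 CPM, up to 2 members per gene list by −log10 q, and the 5 called genes of smallest adjusted p. A gene that the rule names in the erythroid list is not reported here. The share on chromosome X was added after seeing the data.

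Same-numbered libraries were not treated as pairs. The correlation of their deviations from group means was 0.0324, 0.161 and -0.127 for RNA and 0.0709, 0.00857 and 0.199 for ATAC.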

Additional observations from a re-analysis of the deposited data

How the results depend on the processing

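The differences between single-library and shared regions kept their direction under every alternative tried. Leaving out 1 ATAC library gave -24.5 to -22.8 percentage points within 1 kb of a start, 16264 to 18293 bp of median distance, -9.60 to -8.37 percentage points inside genes and -1.33 to -1.23 on the log2 scale for the nearest gene, each with p = 0.0625 in the exact sign-flip permutation test, the smallest that 5 libraries can give. The 6bKO minus Control difference in the number of single-library regions was 787 to 10508 without 1 library, and -2323 with lists of equal length. That in their share of the list was -3.69 to 10.1 percentage points without 1 library, and -5.19 with lists of equal length, which keep fewer peaks by construction. The difference on chromosome X was 1.13 to 2.02 percentage points over all alternatives. RNA called 467 genes with DESeq2, 42 with limma-voom, 576 with no filter, and 20 to 519 without 1 library. The cause of these shifts was not tested. With a replicate block, RNA called 88 genes. The exact sign-flip permutation p over 3 ATAC pairs was 0.5 for the number, 0.75 for the share and 0.25 for X. The smallest p that 3 pairs can give is 0.25, and 3 against 3 unpaired libraries can give no less than 0.1. Neither form could thus reach 0.05 between the titles, so this comparison cannot show whether a call depends on the pairing. Whether the numbers pair the samples is not settled. Each library had 3 possible partners, and 4 of 6 ATAC and 2 of 6 RNA libraries correlated best with their own number. Peak lists without read counts limit what absence from a list can show.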
